A study of Caenorhabditis elegans with 123 samples.

Results

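Transcript levels of 10 genes that encode structural proteins of body wall muscle, ketn-1, dim-1, cpn-1, cpn-3, myo-3, unc-54, unc-15, lev-11, tni-1 and pat-10, were followed in early Caenorhabditis elegans embryos. All 22 probe sets that the platform annotation gives to exactly 1 of these symbols were taken, out of 22548 probe sets and 17118 genes on the array. The tropomyosin gene lev-11 has 7 probe sets, unc-15 has 3, ketn-1, cpn-1, dim-1 and pat-10 have 2 each, and the other 4 genes have 1 each. For a gene with several, the probe set that was brightest on average over all arrays stands for the gene, and the others are given beside it.

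Small pools of embryos, staged by their age from the 4-cell stage at 22 °C, were taken at 0, 23, 41, 53, 66, 83, 101, 122, 143 and 186 min and hybridised to Affymetrix arrays. The groups were the wild-type strain N2 (34 arrays), mex-3(zu155); skn-1(RNAi) (28), pie-1(zu154) (27) and pie-1(zu154); pal-1(RNAi) (34), the double genotypes being shortened to mex-3/skn-1 and to pie-1/pal-1. Values given for the 4 genotypes in turn follow that order. Both RNAi genotypes also carry a mutant allele, and the pie-1(zu154) allele is common to the pie-1 and pie-1/pal-1 embryos. MEX-3 is an RNA-binding protein that keeps pal-1 mRNA from being translated in anterior cells, SKN-1 specifies the EMS blastomere, PIE-1 holds transcription off in the germline blastomeres, and PAL-1 is the caudal-type homeodomain protein of the C and D lineages. The 4 genotypes in turn had 3, 4, 3 and 4 arrays at 186 min, and 10, 8, 8 and 11 arrays at 0, 23 and 41 min, which give the early level.

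Body wall muscle of the worm comes mostly from the MS, C and D lineages. Its myogenic program is set by the transcription factors HLH-1, UNC-120 and HND-1, and the sarcomere is built later, when thick filaments of myosin and paramyosin and thin filaments of actin, tropomyosin and troponin are anchored at M-lines and dense bodies. Kettin, calponins and other actin-associated proteins hold the thin filaments in order.

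The deposited values are on a log2 scale and ran from 1.79 to 12.72, with array medians between 3.24 and 3.41. No detection call came with them, so a gene was said to be on only where it had risen above its own early level or above another genotype. A change was called at an adjusted p under 0.05 and at least 2-fold, in 1 limma fit over all arrays with Benjamini-Hochberg adjustment over 22548 probe sets, and adjusted p-values come from that fit, or from the same fit without an array where one is said to be left out. Differences are log2 differences ± SE, and levels are log2 values. The targeted genes were read first. At 0 to 41 min pie-1 averaged 7.69 ± 0.40 in N2 (SD, n = 10) against 3.45 ± 0.18 (n = 11) in pie-1/pal-1 and 3.52 ± 0.21 (n = 8) in pie-1, and mex-3 averaged 8.03 ± 0.77 in N2 (n = 10) against 3.54 ± 0.28 in mex-3/skn-1 (n = 8). The RNAi targets were less plain: skn-1 was low in all genotypes at that stage (4.05 ± 0.37 in N2, 3.63 ± 0.25 in mex-3/skn-1), and pal-1 in pie-1/pal-1 spread widely at 6.88 ± 2.65 (SD, n = 11), against 7.99 ± 0.50 in N2 (n = 10). The array at 186 min that is labelled mex-3/skn-1 replicate 7 read 6.36 for mex-3, where the other 3 of its group lay between 3.63 and 3.90. Results of mex-3/skn-1 at 186 min that rest on this array are also given without it. No recorded scan day holds 2 genotypes, so scan day and genotype cannot be told apart in a difference between genotypes. In pooled embryos, fewer muscle cells and less RNA per cell cannot be told apart.

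By 186 min few of the sarcomere genes were called on. In mex-3/skn-1 embryos the standing ketn-1 probe set had risen about 9-fold, while the second rose by 0.85, under 2-fold. Of dim-1 and pat-10, 1 of the 2 probe sets each passed the threshold, and none did without replicate 7. At 186 min no member was called above its early level in N2, pie-1 or pie-1/pal-1, although dim-1 was called at earlier times in all 3 and ketn-1 in N2 and pie-1, and cpn-1, abundant at the 4-cell stage, had fallen in all 4 genotypes. Of the 22 probe sets 3 were called higher in mex-3/skn-1 (1 without replicate 7), where 7.54% of all probe sets were, and 0 were called higher in N2, pie-1 and pie-1/pal-1, where 6.59%, 5.69% and 6.94% of all probe sets were. In limma, 6, 5 and 4 member probe sets had an unadjusted p under 0.05 in these 3 genotypes, in either direction and with the 2 cpn-1 probe sets among them. The share of all probe sets under that p is not given here, so nothing is read from these 3 counts. The 2 called lower in every genotype were those of cpn-1, beside 9.66% of all probe sets in N2, 8.88% in pie-1, 6.44% in pie-1/pal-1 and 5.14% in mex-3/skn-1. The median change of the 22 probe sets was 0.13 in N2, -0.04 in pie-1, 0.00 in pie-1/pal-1 and 0.31 in mex-3/skn-1 (0.12 without replicate 7), and that of all probe sets was 0.03, 0.02, -0.01 and -0.01.

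**Figure D1:**
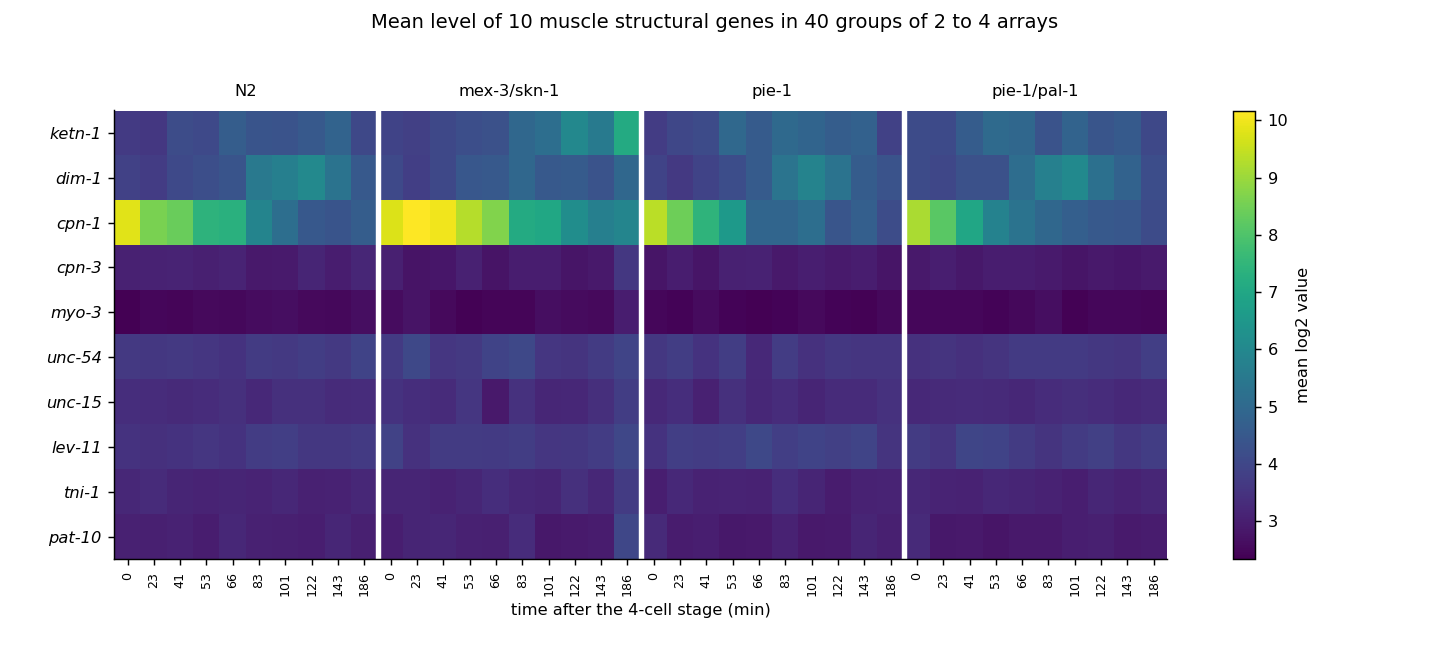
Mean log2 level (colour) of the standing probe set of each of 10 muscle structural genes (rows) at 10 times after the 4-cell stage in 4 genotypes (columns, 2 to 4 arrays each). Only cpn-1, ketn-1 and dim-1 reach group means above 4.05, cpn-1 most at the start, dim-1 most at 101 or 122 min in 3 genotypes and ketn-1 most in mex-3/skn-1 embryos at 186 min.

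ketn-1 encodes kettin, a giant protein of immunoglobulin domains that lies along the thin filament near the dense body. At 186 min its 4 mex-3/skn-1 arrays read 6.99, 7.16, 7.43 and 6.96, the 3 N2 arrays 3.85, 4.31 and 3.97, the 3 pie-1 arrays 3.49, 3.97 and 4.13, and the 4 pie-1/pal-1 arrays 4.11, 4.12, 3.84 and 4.07. All mex-3/skn-1 arrays lay above every array of the other genotypes, whose ranges overlapped each other. The 8 early mex-3/skn-1 arrays had a lowest value of 3.34, a median of 4.01 and a highest of 4.38.

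The rise in mex-3/skn-1 was 3.21 ± 0.24 (9.28-fold, adjusted p = 1.47e-21), and the group mean of 7.14 ± 0.21 (SD, n = 4) stood at percentile 95.8 of the array. The change was 0.22 ± 0.25 in N2 (adjusted p = 0.638), -0.25 ± 0.22 in pie-1/pal-1 (adjusted p = 0.546) and -0.10 ± 0.26 in pie-1 (adjusted p = 0.838), with 95% intervals from -0.69 to 0.72 over these 3 genotypes. Level and rise both differed between genotypes. At 186 min mex-3/skn-1 was 3.10 ± 0.29 above N2 (adjusted p = 9.34e-15) and 3.10 ± 0.27 above pie-1/pal-1 (adjusted p = 6.83e-17), and the rise itself was larger by 2.99 ± 0.34 than in N2 (adjusted p = 6.21e-11) and by 3.46 ± 0.32 than in pie-1/pal-1 (adjusted p = 4.70e-15). Called larger in rise were 5.89% of all probe sets against N2 and 3.56% against pie-1/pal-1, and both comparisons use the same mex-3/skn-1 arrays. mex-3/skn-1 and pie-1 were not compared by a test. Within the 1 scan day that holds mex-3/skn-1 arrays of both ends, the 4 arrays at 186 min averaged 3.45 above the 2 arrays at 0 min and did not overlap them.

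In mex-3/skn-1 ketn-1 was called at every time from 83 min on. It was first called at 83 min (1.02 ± 0.24, adjusted p = 3.94e-04), then at 101 min (1.23 ± 0.30), 122 min (2.08 ± 0.24), 143 min (1.64 ± 0.30) and 186 min. Of all probe sets 5.06%, 3.00%, 5.14% and 3.12% were called higher in mex-3/skn-1 at 83, 101, 122 and 143 min. The 2 arrays at 143 min disagreed, 6.77 in replicate 2 and 4.35 in replicate 5. Without replicate 2 the value at 143 min was 0.43 ± 0.36 (adjusted p = 0.406) and without replicate 5 it was 2.85 ± 0.36. The call at 83 min was lost without replicate 5 (0.97) or replicate 6 (0.88), and that at 101 min without replicate 2 (1.29 ± 0.41, adjusted p = 0.0581), so the first called time rests on single arrays, whereas the call at 122 min held without any 1 array of that time. The other genotypes showed small and passing excursions. In pie-1/pal-1 ketn-1 was called at no time, but changed by 0.77 ± 0.25 at 53 min (adjusted p = 0.0254). Its mean there was 5.05, against 4.99 in pie-1. N2 was called at 143 min (1.01 ± 0.25, arrays 5.09, 4.67 and 4.72) and pie-1 at 53 min (1.03 ± 0.30) and 83 min (1.06 ± 0.30), all at the edge of the 2-fold minimum. Each of these 3 calls was lost without 1 array: N2 replicate L (0.88), pie-1 replicate 2 at 53 min (0.62) and pie-1 replicate 4 at 83 min (0.92). The shares of all probe sets called higher were 8.43% in N2 at 143 min, and 1.62% at 53 min and 5.00% at 83 min in pie-1. At 122 min mex-3/skn-1 was already 1.46 ± 0.29 above N2 (adjusted p = 8.77e-05) and 1.59 ± 0.27 above pie-1/pal-1 (adjusted p = 4.14e-06), where 0.665% and 0.874% of all probe sets were called higher, whereas N2 and the other mutants did not differ by a called amount at any time.

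The second ketn-1 probe set was much dimmer. It read 4.59, 4.37, 4.40 and 4.32 in the 4 mex-3/skn-1 arrays at 186 min, against 3.70, 3.52 and 3.50 in N2. The pie-1 arrays read 4.33, 4.12 and 3.40 and overlapped those of mex-3/skn-1, and the pie-1/pal-1 arrays ran from 3.55 to 3.84. All 4 mex-3/skn-1 arrays lay above the early arrays of that genotype, which reached 3.81. Without replicate 7 the rise was 0.86 ± 0.13 (adjusted p = 5.43e-08), which is under 2-fold. The second probe set was called at no time in any genotype. Its name ends in _s_at, Affymetrix's mark for probes that match more than 1 transcript. The standing probe sets of cpn-3, myo-3, unc-54, tni-1 and pat-10 carry the same ending. So do other probe sets of cpn-1, dim-1, unc-15, pat-10 and lev-11. Over the 40 group means the genes whose pattern was most like that of ketn-1 were C05C8.7 (Pearson r = 0.762), M02H5.8 (0.755) and spp-31 (0.751), each also highest in mex-3/skn-1 at 186 min. These are descriptions over groups that share arrays and one strong point.

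**Figure D2:**
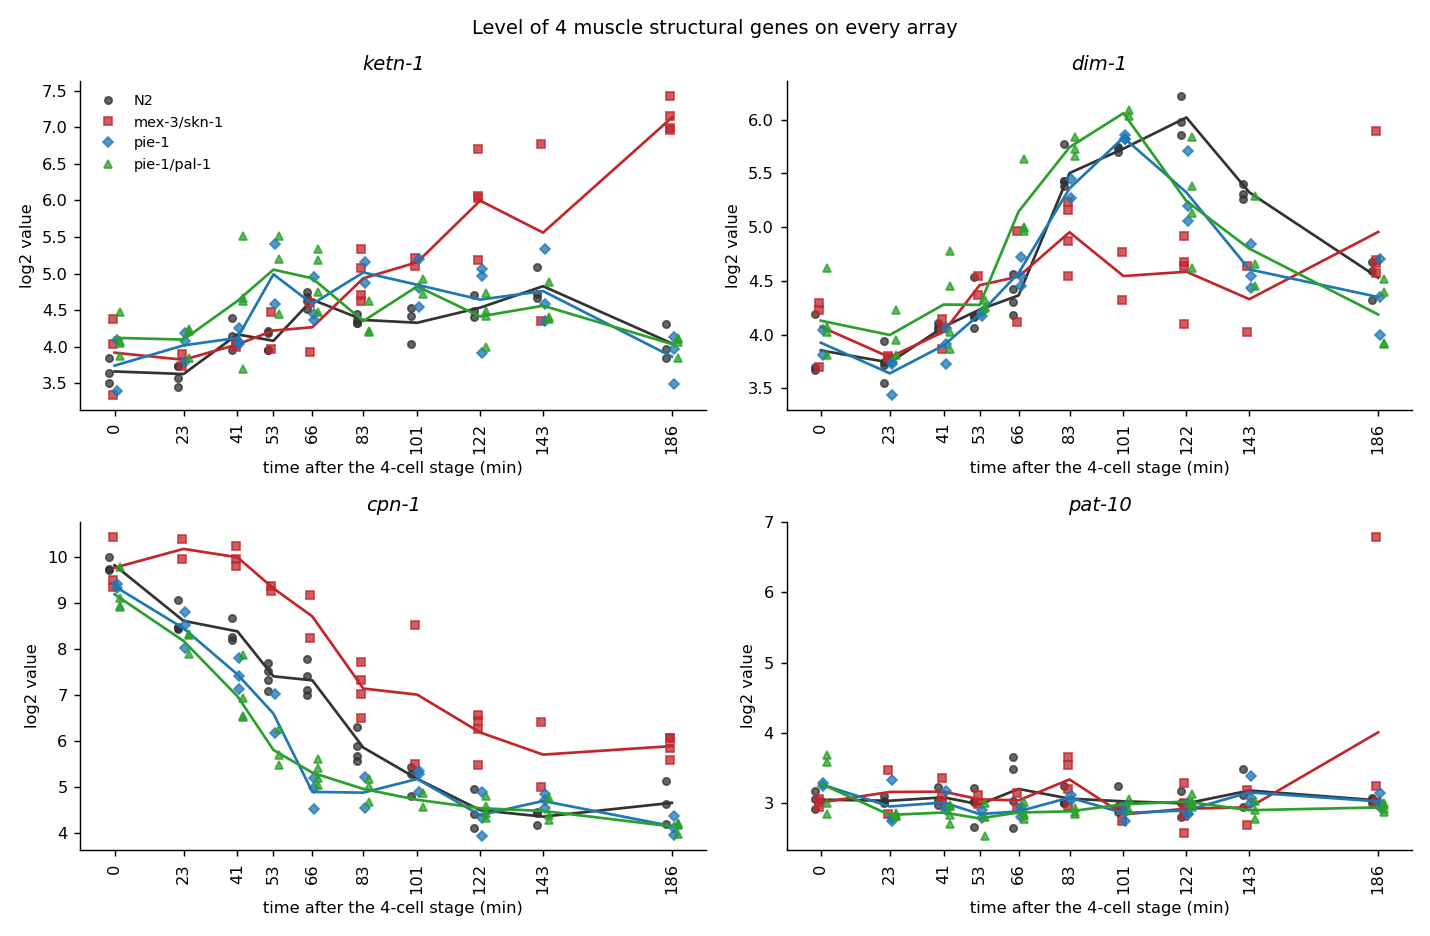
Log2 level on every array (points) and group mean (lines) of ketn-1, dim-1, cpn-1 and pat-10 against time after the 4-cell stage in min, by genotype. ketn-1 climbs to 6.96 to 7.43 in mex-3/skn-1, dim-1 peaks at 101 or 122 min in the other 3 genotypes, cpn-1 falls in all, and pat-10 leaves its baseline on a single array.

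dim-1 encodes an immunoglobulin-domain protein that helps to keep thin filaments in place around the dense body. It was on for a time and then down again in 3 genotypes, and was not called at any time by its standing probe set in mex-3/skn-1. In N2 the arrays at 122 min read 5.98, 5.86 and 6.22, against a lowest of 3.55, a median of 3.84 and a highest of 4.19 in the 10 early arrays, without overlap. By 186 min they had come down to 4.59, 4.68 and 4.32.

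The N2 rise was called at 83 min (1.61 ± 0.17), 101 min (1.84 ± 0.19), 122 min (2.13 ± 0.19, adjusted p = 4.81e-17) and 143 min (1.43 ± 0.19). pie-1 was called from 83 to 122 min with the highest value at 101 min (2.01 ± 0.19, adjusted p = 3.73e-15), and pie-1/pal-1 from 66 to 122 min, also highest at 101 min (1.92 ± 0.22, adjusted p = 5.86e-12). In pie-1/pal-1 the calls at 66 and 122 min were lost without replicate 1 (0.84 and 0.91). The second probe set was called at fewer times. In N2 it was called at 83, 101 and 122 min, but not at 143 min (0.84 ± 0.22). In pie-1 it was called at 83 min alone (1.09 ± 0.26), with 0.76 at 101 min and 0.67 at 122 min. In pie-1/pal-1 it was called at 101 min alone (1.5 ± 0.25), with 0.62, 0.76 and 0.59 at 66, 83 and 122 min. At 101 min the pie-1 arrays read 5.82, 5.82 and 5.86 and the pie-1/pal-1 arrays 6.09 and 6.03, close to the N2 arrays at 5.75, 5.70 and 5.74. Among all probe sets 5.70%, 5.65%, 7.04% and 8.43% were called higher in N2 at 83, 101, 122 and 143 min. For pie-1 the shares were 5.00%, 5.19% and 5.42% at 83, 101 and 122 min, and for pie-1/pal-1 4.02%, 5.42%, 7.58% and 7.17% at 66, 83, 101 and 122 min.

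In mex-3/skn-1 the change was largest before 186 min at 83 min, 0.99 ± 0.18 (adjusted p = 3.29e-06), just under 2-fold. The arrays read 4.77 and 4.32 at 101 min and 4.10, 4.64, 4.92 and 4.68 at 122 min. The difference from N2 was -1.19 ± 0.26 at 101 min (adjusted p = 5.65e-04) and -1.43 ± 0.22 at 122 min (adjusted p = 2.81e-07). The first of these was under 2-fold without mex-3/skn-1 replicate 4 (-0.96 ± 0.33, adjusted p = 0.0387). The difference from pie-1/pal-1 was -1.52 ± 0.29 at 101 min (adjusted p = 5.87e-05), over 2 arrays each, and -0.65 ± 0.20 at 122 min (adjusted p = 0.0239), which was not called. No array overlapped between mex-3/skn-1 and N2 at these 2 times. Called lower against N2 were 7.60% of all probe sets at 101 min and 7.00% at 122 min, and against pie-1/pal-1 4.11% at 101 min. The second dim-1 probe set gave -1.44 ± 0.30 and -1.75 ± 0.25 for the same N2 differences, both called.

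At 186 min the genotypes no longer differed by a called amount (mex-3/skn-1 minus N2 0.42 ± 0.22, adjusted p = 0.407, or 0.11 ± 0.21, adjusted p = 0.987, without replicate 7). The mex-3/skn-1 arrays read 4.67, 4.57, 5.89 and 4.69, and the change from the early level was 0.99 ± 0.18 (adjusted p = 2.02e-06), just under 2-fold. The second probe set was called at 1.17 ± 0.20 (adjusted p = 1.11e-06). Without replicate 7, the array at 5.89, the values were 0.68 ± 0.18 (adjusted p = 0.00166) and 0.98 ± 0.22 (adjusted p = 1.95e-04) and neither was called. The change was 0.64 ± 0.19 in N2 (adjusted p = 0.0045), 0.05 ± 0.17 in pie-1/pal-1 (adjusted p = 0.907) and 0.53 ± 0.19 in pie-1 (adjusted p = 0.0322), none called.

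cpn-1 and cpn-3 encode calponin-like proteins, which bind actin and stabilise thin filaments. cpn-1 behaved unlike every other member: its transcript was among the brightest at the 4-cell stage and was lost as development went on. At 0 min the arrays read 9.70, 10 and 9.73 in N2, 10.43, 9.50 and 9.34 in mex-3/skn-1, 9.40 and 9.31 in pie-1, and 9.10, 9.78, 8.91 and 8.93 in pie-1/pal-1. At 186 min they read 4.21, 4.64 and 5.13 in N2, 6.06, 5.85, 6.07 and 5.58 in mex-3/skn-1, 3.96, 4.12 and 4.38 in pie-1, and 4.22, 4.17, 3.99 and 4.21 in pie-1/pal-1. The change from the early level was -4.27 ± 0.28 in N2, -4.26 ± 0.29 in pie-1, -3.96 ± 0.25 in pie-1/pal-1 and -4.08 ± 0.26 in mex-3/skn-1, each called, with the largest adjusted p at 3.31e-23. The fall was called in the second probe set too, at -3.49 in N2, -3.08 in pie-1, -2.52 in pie-1/pal-1 and -2.68 in mex-3/skn-1.

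By the standing probe set the loss ran on different schedules. The second was never called higher in mex-3/skn-1 than in N2, as given below. From 23 min on, mex-3/skn-1 was called above N2 by the standing cpn-1 probe set at every time, by 1.23 to 1.91 (adjusted p from 4.97e-05 to 0.00986), and above pie-1/pal-1, by up to 3.50 ± 0.39 at 53 min (adjusted p = 5.71e-11). At 3 of the times with 2 mex-3/skn-1 arrays the excess over N2 rested on 1 of them. At 101 min they read 5.50 and 8.51 against 4.81 to 5.44 in N2, and the difference was 0.32 ± 0.42 (adjusted p = 0.674) without replicate 4. At 66 and 143 min it was 0.91 (adjusted p = 0.269) without replicate 3 and 0.64 (adjusted p = 0.311) without replicate 2. Against pie-1/pal-1 the calls at 101 min (0.77 without replicate 4) and 143 min (0.51 without replicate 2) rested on 1 array as well. At 53 min the mex-3/skn-1 arrays read 9.36 and 9.26, the 4 N2 arrays 7.08, 7.52, 7.32 and 7.69, and the 3 pie-1/pal-1 arrays 6.25, 5.69 and 5.48, with no overlap between any of these genotypes. pie-1/pal-1 was lower than N2 at 41 min (-1.41 ± 0.33), 53 min (-1.59 ± 0.33) and 66 min (-2.0 ± 0.30, adjusted p = 4.46e-07), and pie-1 at 66 min (-2.42 ± 0.33, adjusted p = 2.37e-08). Called higher in mex-3/skn-1 than in N2 were 1.27%, 0.905%, 1.66%, 0.679%, 0.670%, 0.900%, 0.665% and 0.266% of all probe sets at the 8 times from 23 to 143 min, and 2.37% were called higher than in pie-1/pal-1 at 53 min. Called lower than N2 in pie-1/pal-1 were 7.56% at 41 min, 6.51% at 53 min and 4.55% at 66 min, and in pie-1 8.57% at 66 min.

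The 2 cpn-1 probe sets agreed on the pie-1/pal-1 and pie-1 deficits but not on the mex-3/skn-1 excess over N2. At 66 min the second probe set differed from N2 by -2.04 ± 0.30 in pie-1/pal-1 (adjusted p = 2.41e-07) and by -2.33 ± 0.32 in pie-1 (adjusted p = 5.85e-08), both called lower. For mex-3/skn-1 against N2 it was called at 23 min alone, and there in the opposite direction (-1.38 ± 0.37, adjusted p = 0.00222, arrays 5.39 and 6.25 against 7.09 to 7.29), beside 12.5% of all probe sets called lower. At 186 min the standing probe set gave 1.23 ± 0.33 (adjusted p = 0.00986), which became 1.00 (adjusted p = 0.135) without N2 replicate 1 and 1.03 (adjusted p = 0.0607) with the GAPDH difference below as a covariate. Affymetrix arrays carry probe sets for the 3' and the 5' end of the GAPDH transcript, and the 3' minus 5' difference grows as RNA or its copies shorten. Over the early arrays it averaged 0.92 in N2, 1.28 in pie-1, 1.38 in pie-1/pal-1 and 1.64 in mex-3/skn-1, and at 186 min 0.73, 1.39, 1.51 and 1.36. Its part in the disagreement of the 2 probe sets was not tested.

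cpn-3 was dim throughout. Its arrays at 186 min read 3.19, 3.16 and 3.18 in N2, 2.92, 3.18, 2.63 and 2.90 in pie-1/pal-1, 2.78, 2.92 and 2.66 in pie-1, and 3.43, 2.93, 4.99 and 3.14 in mex-3/skn-1. All arrays but 1 lay between 2.55 and 3.43, and replicate 7 of mex-3/skn-1 at 186 min was the exception. The change in mex-3/skn-1 was 0.76 ± 0.15 (adjusted p = 1.21e-05), under the 2-fold minimum, and 0.31 ± 0.12 (adjusted p = 0.0395) without that array.

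**Figure D3:**
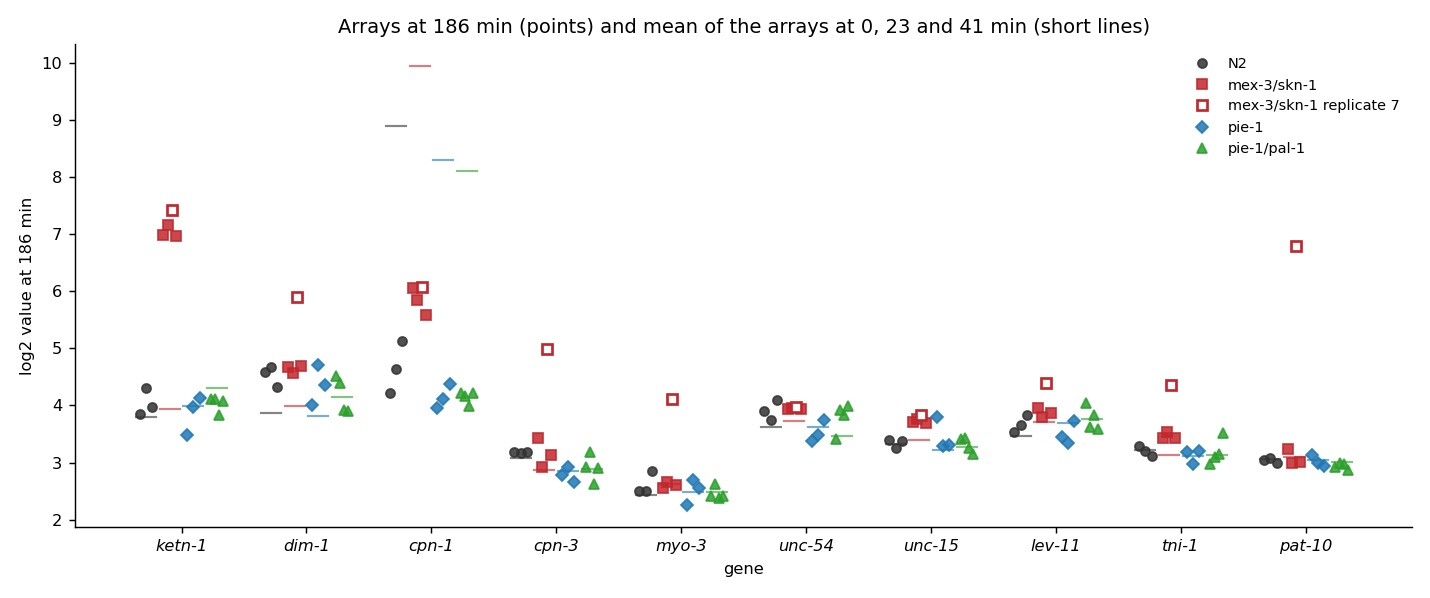
Log2 level of 10 muscle structural genes on each array at 186 min (points, 3 or 4 per genotype) with the mean of the arrays at 0, 23 and 41 min (short lines). The 4 mex-3/skn-1 arrays lie together for ketn-1 (6.96 to 7.43), while for pat-10, cpn-3, myo-3, dim-1 and tni-1 the array of replicate 7 (open square) lies above the other 3.

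Among the genes of the thick filament, myo-3 encodes myosin heavy chain A of the filament centre, unc-54 encodes the major myosin heavy chain B, and unc-15 encodes paramyosin, the core protein. None was called higher in any genotype at any time. myo-3 was the dimmest member, at 2.50, 2.50 and 2.85 in N2 at 186 min, a mean at percentile 7.15 of those arrays. In mex-3/skn-1 it read 2.55, 2.66, 4.11 and 2.60, 3 arrays within the N2 range and replicate 7 above it. The change in mex-3/skn-1 was 0.34 ± 0.13 (adjusted p = 0.0316) and -0.03 ± 0.10 (adjusted p = 0.861) without replicate 7.

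unc-54 read 3.90, 3.75 and 4.10 in N2, 3.94, 3.95, 3.97 and 3.93 in mex-3/skn-1, 3.38, 3.49 and 3.74 in pie-1, and 3.42, 3.92, 3.83 and 3.99 in pie-1/pal-1 at 186 min. These values overlapped, and the changes from the early level were 0.28 ± 0.14, 0.18 ± 0.13, -0.09 ± 0.14 and 0.31 ± 0.12 (adjusted p from 0.0505 to 0.716). Replicate 7 did not stand out, and over all other arrays unc-54 ran from 2.57 to 4.55. unc-15 read 3.71, 3.76, 3.83 and 3.69 in mex-3/skn-1 and 3.40, 3.25 and 3.37 in N2. These arrays did not overlap, but the difference of 0.41 ± 0.17 (adjusted p = 0.201) was not called, and the early mex-3/skn-1 arrays reached 3.85. The other 2 unc-15 probe sets, at 2.93 to 3.06 and 2.32 to 2.48 in replicates 5, 6 and 8, read 4.18 and 4.02 in replicate 7.

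The remaining members belong to the thin filament, where tropomyosin (lev-11) and the troponin subunits I (tni-1) and C (pat-10) make contraction depend on calcium. lev-11 stayed between 3.30 and 4.59 over all arrays, replicate 7 (4.39) included, and its changes by 186 min ran from -0.17 ± 0.14 in pie-1 to 0.32 ± 0.12 in mex-3/skn-1 (adjusted p = 0.0372, not called). The latter was 0.19 ± 0.13 (adjusted p = 0.317) without replicate 7. At 186 min it read 3.53, 3.65 and 3.83 in N2, 3.96, 3.79, 4.39 and 3.87 in mex-3/skn-1, 3.44, 3.35 and 3.72 in pie-1, and 4.04, 3.63, 3.83 and 3.58 in pie-1/pal-1, and mex-3/skn-1 overlapped N2 and pie-1/pal-1. None of its 7 probe sets was called at any time. Of these 3, the standing one included, carry the ending _x_at, Affymetrix's mark for probes that may also bind unrelated transcripts.

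tni-1 read 3.29, 3.21 and 3.11 in N2, 2.98, 3.10, 3.15 and 3.52 in pie-1/pal-1, 3.18, 2.97 and 3.20 in pie-1, and 3.43, 3.53, 4.35 and 3.43 in mex-3/skn-1 at 186 min. The mex-3/skn-1 arrays lay above the N2 arrays, with a difference of 0.48 ± 0.16 that was not called (adjusted p = 0.0568) and was 0.26 ± 0.16 (adjusted p = 0.638) without replicate 7. The change from the early level was 0.55 ± 0.13 (adjusted p = 2.76e-04), or 0.33 ± 0.13 (adjusted p = 0.0501) without replicate 7. Both were under 2-fold.

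pat-10 gave the sharpest contrast between arrays of 1 group. The 4 mex-3/skn-1 arrays at 186 min read 3.24, 2.99, 6.79 and 3.01, and all other arrays of the series lay between 2.54 and 3.68. In the second probe set replicate 7 read 7.68, where the other 3 read 3.32, 2.84 and 3.06. The second probe set also read 6.00 in pie-1/pal-1 at 0 min, replicate 3, where the standing one read 3.68.

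The pat-10 rise in mex-3/skn-1 was 0.90 ± 0.25 in the standing probe set (adjusted p = 0.00246, not called) and 1.43 ± 0.34 in the second (adjusted p = 4.50e-04, called), and both were called above pie-1/pal-1 at 186 min (1.07 ± 0.28, adjusted p = 0.00506, and 1.37 ± 0.39, adjusted p = 0.0112). All of these rest on replicate 7. Without it the rises were -0.03 ± 0.14 (adjusted p = 0.907) and 0.27 ± 0.24 (adjusted p = 0.459), and the differences from pie-1/pal-1 were 0.14 ± 0.16 (adjusted p = 0.744) and 0.22 ± 0.27 (adjusted p = 0.773). In N2 the pat-10 arrays read 3.04, 3.08 and 3.00, with a change of -0.01 ± 0.26 and a 95% interval from -0.54 to 0.51.

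Replicate 7 was therefore examined against the other 3 arrays of its group over all genes. Of the 22548 probe sets 92 (0.408%) were at least 2-fold above the highest of the other 3, compared with 25 (0.111%) for replicate 5, 1 (0.00443%) for replicate 6 and 0 for replicate 8. Of the 22 member probe sets 7 were among the 92, and by standing probe set they were pat-10, cpn-3, myo-3 and dim-1. In the list of 20 other measured filament genes 4 met the same measure: the regulatory light chain genes mlc-1 (4.91, others at most 3.43) and mlc-2 (6.30, others at most 4.05) and the troponin T genes mup-2 (4.94, others at most 3.37) and tnt-3 (4.30, others at most 3.01). These light chain genes are close copies of each other, and signal from shared probes cannot be assigned to either.

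Of 4 targeted genes 1 met the measure, mex-3, as given above. None of 21 attachment genes, 16 excitation genes or 8 pharyngeal muscle genes did, and of 10 epidermis markers only the cuticle collagen gene dpy-7 did (6.00, others at most 3.85). The regulators hlh-1 (6.84), unc-120 (7.27) and hnd-1 (7.46) were lower in it than in all 3 others (lowest 6.96, 7.57 and 7.47). Its GAPDH difference of 1.47 and its 54 embryos lay within the 0.77 to 1.72 and 43 to 60 of the other 3, it shares their scan day, and its overall deviation from the group median was 0.85 of the median over all arrays. Why it differs was not tested. Without it, ketn-1 was the only member called higher in mex-3/skn-1, at 3.12 ± 0.26 (adjusted p = 2.97e-18), while 5 member probe sets were called without replicate 5, 6 or 8.

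**Figure D4:**
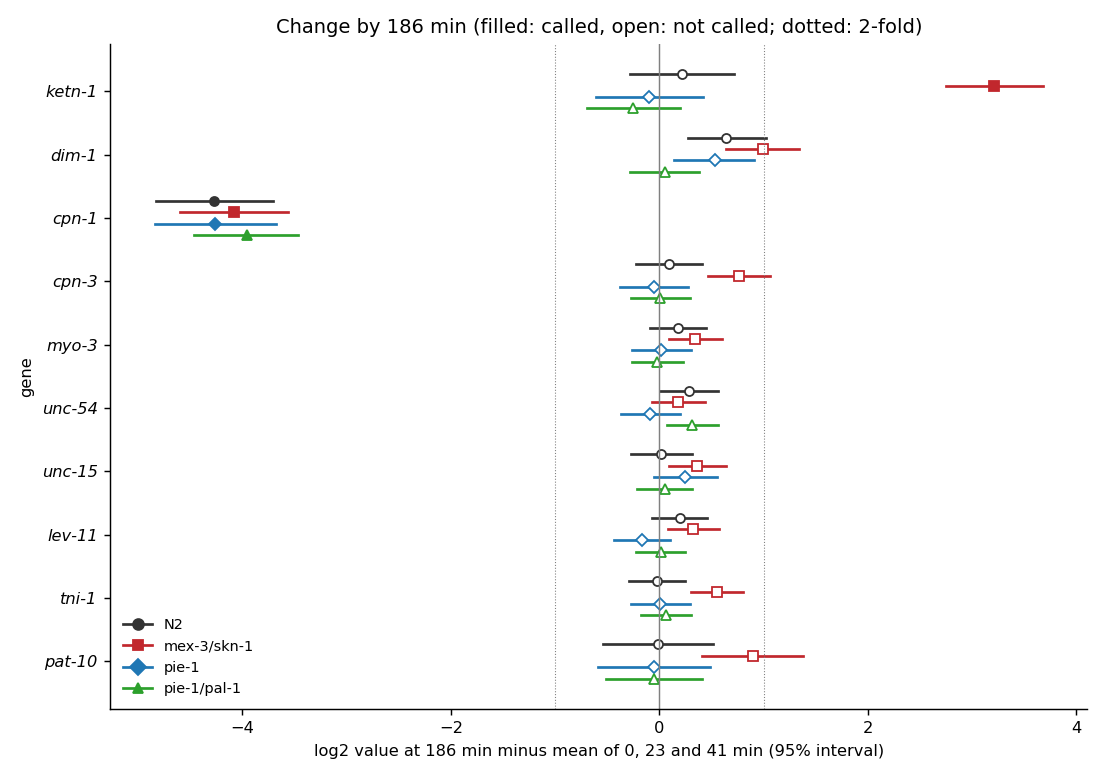
Log2 level at 186 min minus the mean of the 0, 23 and 41 min groups (x axis, with 95% interval) of the standing probe set of 10 muscle structural genes in 4 genotypes, filled where called. ketn-1 in mex-3/skn-1 (3.21) and cpn-1 in all 4 genotypes (-4.27 to -3.96) lie beyond the dotted 2-fold lines and are called.

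Set side by side at 186 min, called differences in members lay only between mex-3/skn-1 and the genotypes tested against it. Between mex-3/skn-1 and N2 2 member probe sets were called higher, those standing for ketn-1 and cpn-1, where 0.816% of all probe sets were, and between mex-3/skn-1 and the pie-1/pal-1 embryos 4 were, the same 2 and both of pat-10 (2 without replicate 7), where 2.27% of all probe sets were. None was called lower in either, beside 1.77% and 2.22% of all probe sets. For cpn-1 the fall from the early level did not differ by a called amount, at 0.19 against N2 and -0.12 against pie-1/pal-1. No member probe set was called in either direction for pie-1 against N2, pie-1/pal-1 against N2, or pie-1/pal-1 against pie-1, where 1.93%, 1.41% and 0.0177% of all probe sets were called lower and 0.155%, 0.860% and 0.217% higher. In limma 5, 1 and 1 member probe sets had an unadjusted p under 0.05 in these 3 comparisons, and 0 in each had an adjusted p under 0.05. The share of all probe sets under that unadjusted p is again not given, and nothing is read from the counts. These comparisons share arrays of all 4 genotypes and are not independent.

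All 3 muscle regulator genes were called above their early level by 186 min except hlh-1 in pie-1. hlh-1, the MyoD homolog, stood at 6.17 ± 0.28 in N2 (SD, n = 3), 7.28 ± 0.50 in mex-3/skn-1 (n = 4), 3.16 ± 0.13 in pie-1 (n = 3) and 3.77 ± 0.42 in pie-1/pal-1 (n = 4) at 186 min. The rise was 3.42 ± 0.22 in N2, 4.59 ± 0.21 in mex-3/skn-1 and 1.03 ± 0.19 in pie-1/pal-1, each called, and 0.45 ± 0.23 in pie-1 (adjusted p = 0.136). unc-120, the serum response factor homolog, rose by 3.43 ± 0.27, 4.37 ± 0.25, 1.72 ± 0.28 and 1.85 ± 0.24 in the 4 genotypes in turn, and the Hand factor gene hnd-1 by 2.54 ± 0.33, 4.44 ± 0.31, 1.76 ± 0.34 and 1.82 ± 0.29, all called. Against N2, hlh-1 was 1.12 ± 0.25 higher in mex-3/skn-1 (adjusted p = 0.00141) and 3.01 ± 0.27 lower in pie-1 (-3.01, adjusted p = 3.41e-15). In N2 the median change of the 22 structural probe sets was 0.13 at a time when hlh-1 and unc-120 averaged 6.17 and 6.86.

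Of 20 other filament genes measured, 1 was called higher in N2, 2 in pie-1, 1 in pie-1/pal-1 and 3 in mex-3/skn-1 (2 without replicate 7). Beside these counts 6.59%, 5.69%, 6.94% and 7.54% of all probe sets were called higher in the same order. The median changes of the list were 0.13, 0.05, -0.04 and 0.13. The actin gene act-4 rose in all 4 genotypes, by 3.14 ± 0.34 in N2 and 3.29 ± 0.32 in mex-3/skn-1, and act-3 fell in all 4, by 2.37 ± 0.24 in N2 (-2.37, adjusted p = 1.20e-14). The actin genes are nearly identical in their coding sequence, so these values may hold each other's signal. unc-27, a troponin I gene, rose in mex-3/skn-1 (1.34 ± 0.14, adjusted p = 3.07e-14) and stayed at 1.27 ± 0.15 without replicate 7, and in N2 it reached 0.98 ± 0.15 (adjusted p = 1.80e-08), just under 2-fold. mlc-2 was called in mex-3/skn-1 (1.11 ± 0.18, adjusted p = 3.35e-07) but not without replicate 7 (0.51 ± 0.13, adjusted p = 0.00174).

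Of 21 measured genes of the attachment complexes, 4 were called higher in N2 and 5 in each of the other 3 genotypes, and none lower. Of all probe sets 6.59%, 7.54%, 5.69% and 6.94% were called higher in the 4 genotypes in turn. Most of the list was not called, with median changes of 0.08, 0.22, -0.03 and 0.12 in the same order. The 4 genes pat-4, unc-112, unc-97 and tln-1 were called in every genotype. The integrin-linked kinase gene pat-4 rose by 2.44 ± 0.23, 2.77 ± 0.22, 2.10 ± 0.24 and 2.64 ± 0.21 in the 4 genotypes in turn. The kindlin gene unc-112 rose by 2.05 ± 0.29, 1.68 ± 0.27, 2.34 ± 0.30 and 2.70 ± 0.26, and the PINCH-type LIM gene unc-97 by 1.68 ± 0.20, 1.78 ± 0.18, 1.23 ± 0.20 and 1.66 ± 0.18. The talin gene tln-1 rose by 2.13 ± 0.25, 2.30 ± 0.23, 2.07 ± 0.26 and 3.04 ± 0.22, and these proteins also serve adhesion in tissues other than muscle.

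Of 16 measured genes of excitation and calcium handling none was called in any genotype, with median changes between -0.04 and 0.07. This and the counts below stand beside 5.69% to 7.54% of all probe sets called higher over the 4 genotypes. Of 8 genes of pharyngeal muscle, the foregut selector gene pha-4 alone was called, higher in N2 (3.85 ± 0.23), pie-1 (4.63 ± 0.24) and pie-1/pal-1 (4.56 ± 0.20) and at -0.02 ± 0.21 (adjusted p = 0.956) in mex-3/skn-1. Markers of other tissues moved with genotype as well. Of 10 epidermis markers 7 rose in mex-3/skn-1 and also in N2, 4 in pie-1/pal-1 and 2 in pie-1. Their mean level per array at 186 min ran from 5.81 to 5.90 in N2, 4.64 to 5.11 in pie-1, 4.87 to 5.37 in pie-1/pal-1 and 6.24 to 6.84 in mex-3/skn-1. Of 8 endoderm markers 4, 0, 3 and 4 rose in the 4 genotypes in turn, with mean levels of 4.42 to 4.65, 3.69 to 3.73, 4.18 to 4.84 and 4.47 to 4.77. Of 8 neuron markers 5, 2, 4 and 3 rose in the same order and 1, the synaptobrevin gene snb-1, fell in N2 and in pie-1, with mean levels of 5.73 to 5.78, 4.52 to 4.68, 4.81 to 5.55 and 5.17 to 5.42. The part of these shifts in the values of the structural genes was not tested.

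**Figure D5:**
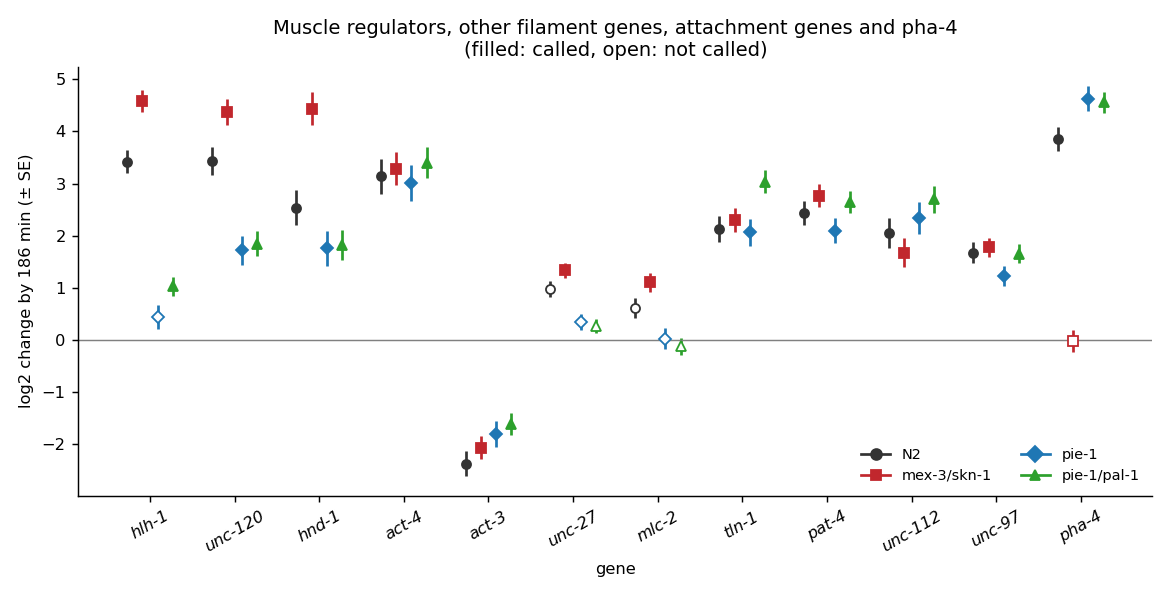
Log2 change by 186 min (y axis, ± SE, filled where called) of 3 muscle regulators, 4 other filament genes, 4 attachment genes and pha-4 in 4 genotypes. The regulators differ between genotypes, with hlh-1 from 0.45 in pie-1 to 4.59 in mex-3/skn-1, the 4 attachment genes shown rise in all, and pha-4 does not rise in mex-3/skn-1.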

How the data were processed

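Expression was measured on Affymetrix C. elegans arrays in 40 groups of genotype and time, taken from the labels. The series holds log2 values deposited by the authors, 1 per probe set and array. The log2 scale was read from their range of 1.79 to 12.72, and the sources used here do not name the probe summary or the scaling between arrays. Array description files deposited by the authors hold other items (numbers of embryos, a header time, a scan day) for 97 arrays and none for 26 pie-1 arrays. For 2 arrays (mex-3/skn-1 at 186 min, replicate 5, and pie-1/pal-1 at 122 min, replicate 5) the header time differs from the label, and the label was kept. Nothing says that replicates came from separate cultures, so p-values speak of the spread among these arrays alone, and the number of arrays limits precision.

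Of 22625 probe sets 77 controls were left out. By the platform annotation, 20766 probe sets carry 1 gene symbol, 887 carry several and 895 carry none. All 22 member probe sets matched the RefSeq gene table by the same symbol. No genome or sequence table was used here, so neither coordinates nor sequences are given.

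The 40 group means were fitted by linear models in limma 3.58.1 (R 4.3.3) with moderated variances (83 residual degrees of freedom, prior 4.8), with Benjamini-Hochberg adjustment over 22548 probe sets per contrast. Contrasts were 186 min minus the mean of the 0, 23 and 41 min groups in each genotype, 5 genotype differences at 186 min, differences of these rises, and each later time minus the early level. Differences at other times were added after the values at 186 min were seen. The onset is the first time called with every later time called. The steps were tested on simulated data with 200 changed probe sets.

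Named are all member probe sets, up to 4 genes per other list with the smallest adjusted p, hlh-1, unc-120, hnd-1, the 4 targeted genes, and the 3 genes most correlated with a member called higher. mlc-1, mup-2, tnt-3 and dpy-7 were named after their values in 1 array were seen, and snb-1 after its call was seen. The members and lists were chosen with earlier results of these data known. Alternatives were quantile normalization, centring on bright probe sets (mean of at least 5), a filter on group means of 4, no fold minimum, another variance model, the GAPDH difference as a covariate, other early and late levels, a replicate block, scan day as a block, and leaving out arrays.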

Additional observations from a re-analysis of the deposited data

Results flagged for a closer look

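Each group of 4 arrays was searched for an array farther from the other 3 than Dixon's 95% limit allows, over 12 groups and 10 genes. Of 120 such tests 16 stood out, where chance gives about 1 in 20. In mex-3/skn-1 at 186 min, replicate 7 stood out for pat-10 (6.79, others at most 3.24), dim-1 (5.89, others at most 4.69), tni-1 (4.35, others at most 3.53) and myo-3 (4.11, others at most 2.66). These 4 come from 1 array.

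The other 12 differed less. In N2 they were cpn-1 at 23 min in replicate 3 (9.06), unc-15 (3.60) and lev-11 (3.79) at 53 min in replicate 1, and at 83 min dim-1 in replicate 1 (5.77) and pat-10 in replicate 4 (3.24). In mex-3/skn-1 at 83 min they were myo-3 in replicate 5 (2.29), the only low one, and unc-54 (4.55) and lev-11 (4.10) in replicate 7. In pie-1/pal-1 they were myo-3 at 0 min in replicate 2 (2.62), dim-1 at 66 min in replicate 1 (5.63), tni-1 at 66 min in replicate 4 (3.36) and tni-1 at 122 min in replicate 3 (3.58).

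Between genotypes, the ketn-1 rise by 186 min differed by 2.99 (mex-3/skn-1 minus N2) and 3.46 (mex-3/skn-1 minus pie-1/pal-1), each tested as a contrast in the limma fit.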

How the results depend on the processing

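Leaving out of single arrays apart, over 306 alternative counts of member probe sets, 287 stayed within 1.5 times the count reported and 19 moved. Of 1478 such alternatives for single genes 1444 kept their side of the threshold, 4 lost a call and 30 gained one. None turned a called change into one of the opposite sign. Most of the 30 gains came with no fold minimum, a setting that can add calls but cannot remove them. Changes that were not called did change sign in places. For dim-1 in mex-3/skn-1 minus N2 at 186 min the main value was 0.42, and the alternatives ran from -0.29 to 0.58. With no fold minimum the member probe sets called higher were 2 in N2, 12 in mex-3/skn-1 and 3 in pie-1, 5 between mex-3/skn-1 and N2 and 11 between mex-3/skn-1 and the pie-1/pal-1 embryos. For the rises, mex-3/skn-1 minus N2 then gave 4 higher and 1 lower, and mex-3/skn-1 minus pie-1/pal-1 gave 6. With 143 and 186 min as the late level they were 1 in N2, 1 in mex-3/skn-1, 2 between mex-3/skn-1 and the pie-1/pal-1 embryos, and 1 for the rise of pie-1/pal-1 minus N2. The difference of mex-3/skn-1 and N2 gave 4 with centring on bright probe sets and 1 with the GAPDH covariate. The difference of mex-3/skn-1 and the pie-1/pal-1 embryos gave 2 with scan day as a random block, and that of their rises gave 1 with scan day as a fixed block. Without the 2 arrays whose header names another time, mex-3/skn-1 gave 5, and its rise gave 2 against N2 and 4 against pie-1/pal-1. Why these counts moved was not tested.

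Leaving out 1 array at a time gave 1 to 5 member probe sets for the rise in mex-3/skn-1 (1 without replicate 7 at 186 min, 5 without replicate 5, 6 or 8), 1 to 4 for mex-3/skn-1 minus N2 and 2 to 5 for mex-3/skn-1 minus pie-1/pal-1. The rise differences ran from 1 to 3 and from 1 to 5. Of the single genes, cpn-1 lost its call for mex-3/skn-1 minus N2 at 186 min without N2 replicate 1 (1.00) and pat-10 that for mex-3/skn-1 minus pie-1/pal-1 without replicate 7 (0.14). Of the values called between 23 and 143 min, 6 of 9 for ketn-1, 3 of 14 for dim-1 and 7 of 43 for cpn-1 lost their call without 1 array, an alternative chosen after the data were seen. The pat-10 difference between mex-3/skn-1 and the pie-1/pal-1 embryos also lost its call with 143 and 186 min together (0.55), scan day as a random block (1.03) and without arrays that stand apart (1.02). The ketn-1 rise in mex-3/skn-1 was 3.12 to 3.29 over the arrays left out.

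The replicate number as a replicate block moved no member count, and the ketn-1 rise was then 3.28 (adjusted p = 4.97e-22). Likeness within a number was read from each array's deviations from its group mean, over bright probe sets and between different times. These deviations correlated between same-numbered arrays at 0.068 on average in N2, 0.115 in pie-1, 0.273 in pie-1/pal-1 and 0.09 in mex-3/skn-1. The deviations of arrays with different numbers correlated at -0.006, -0.051, -0.084 and -0.012 in the same order. Of the same-numbered pairs 16 of 38, 57 of 100, 103 of 122 and 22 of 43 were over 0.1. The main fit did not pair samples by number, so its p-values leave out the likeness within a number, which was largest in pie-1/pal-1. An array correlated best with its own number in 0 of 19, 17 of 26, 26 of 33 and 8 of 28 cases. Scan day could not be used for pie-1, which has none recorded.

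Counts over all probe sets moved more. Without a fold minimum those called higher were 2761 in N2, 2890 in pie-1, 3062 in pie-1/pal-1 and 3851 in mex-3/skn-1. Centring on bright probe sets turned the 1284 higher and 2002 lower of pie-1 into 2022 and 1279. With 143 min added, mex-3/skn-1 against N2 went from 184 higher and 399 lower to 36 and 1519. Bright probe sets had a median change of -0.29 in N2, -0.40 in pie-1, -0.14 in pie-1/pal-1 and 0.05 in mex-3/skn-1. The filter on group means kept 9772 probe sets, 10 of them of members.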
